A study of Mus musculus with 10 samples.

Results

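The Slc25 genes encode the mitochondrial carrier family, transport proteins that sit, with few exceptions, in the inner mitochondrial membrane. Members were taken by symbol, as every gene named Slc25a followed by a number, which gave 47 of the 25239 gene symbols in the tables. Of these, 34 reached a mean of 10 normalized reads across all 10 libraries and were tested, among 12422 genes tested in all. The other 13 lay below that level. RNA had been sequenced from cardiomyocytes of the atrium and of the ventricle of wild-type mice, with 5 libraries per chamber and the same genotype in both groups. Age, sex and strain of the mice, the way the cells were isolated and whether libraries came from separate animals are unstated in the labels. A p-value here therefore reflects only how far libraries of a chamber vary, and some of that may be technical. The comparison asks how the transcript levels of atrial and ventricular cardiomyocytes differ.

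Carriers pass nucleotides, phosphate, organic acids, amino acids, cofactors and fatty acid esters across a membrane that is otherwise closed to them, many by exchanging one solute for another. In heart muscle the ADP/ATP carriers hand ATP made in the matrix to the contractile proteins and ion pumps, and the phosphate carrier returns the phosphate. The aspartate-glutamate and oxoglutarate carriers are the membrane steps of the malate-aspartate shuttle, which brings reducing power from cytosolic NADH into the matrix, and the carnitine-acylcarnitine carrier brings in long-chain fatty acids for oxidation.

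The sequences before the start sites of 4 members are shown, chosen by the chamber results of these genes. Slc25a34 had the largest difference between chambers. Slc25a13 and Slc25a12 are a pair of like carriers that differed unequally, and Slc25a25 was higher in atrial libraries. Each sequence is 250 bases on the gene's strand, ending at the base before the RefSeq start site (GRCm38.p6, all on the minus strand). Capitals mark a match to AAGGTCA, a site bound by estrogen-related receptors, read as TGACCTT on the other strand, or to the cyclic AMP response element TGACGTCA. They lie at chr4:141623835-141624084, chr6:6217174-6217423, chr2:71367756-71368005 and, for 1 of the 3 start sites of Slc25a25, the only one with a match, chr2:32424067-32424316.
Slc25a34: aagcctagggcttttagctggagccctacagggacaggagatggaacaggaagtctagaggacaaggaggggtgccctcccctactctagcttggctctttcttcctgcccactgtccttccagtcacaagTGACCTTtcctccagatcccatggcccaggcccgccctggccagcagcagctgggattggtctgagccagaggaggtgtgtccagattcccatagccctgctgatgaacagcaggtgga
Slc25a13: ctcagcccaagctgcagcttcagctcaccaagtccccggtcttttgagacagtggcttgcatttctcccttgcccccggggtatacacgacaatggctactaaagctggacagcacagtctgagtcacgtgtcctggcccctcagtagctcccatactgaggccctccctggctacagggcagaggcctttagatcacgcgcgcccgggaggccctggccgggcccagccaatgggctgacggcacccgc
Slc25a12: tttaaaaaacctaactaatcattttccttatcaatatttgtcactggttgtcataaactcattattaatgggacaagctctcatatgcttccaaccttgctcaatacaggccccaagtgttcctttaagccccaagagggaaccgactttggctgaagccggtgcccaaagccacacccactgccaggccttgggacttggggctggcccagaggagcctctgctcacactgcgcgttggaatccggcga
Slc25a25: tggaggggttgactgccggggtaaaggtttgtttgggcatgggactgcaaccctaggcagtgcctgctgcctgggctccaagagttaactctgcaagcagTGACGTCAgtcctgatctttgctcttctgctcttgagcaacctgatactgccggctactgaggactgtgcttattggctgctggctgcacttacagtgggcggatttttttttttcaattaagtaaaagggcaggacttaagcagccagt

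Windows of 250 bases before to 50 after a start were on hand for 36 members, 26 of them tested. Members for which no window was used include Slc25a2, Slc25a26, Slc25a27, Slc25a32, Slc25a35, Slc25a37, Slc25a41, Slc25a44, Slc25a46 and Slc25a51. Of 4 motifs searched on both strands, chosen after the chamber differences were known, AAGGTCA was found in 1 of the 36 members, Slc25a34, at -119 from the start, against 5.38% of all 27025 genes with a window. TGACGTCA was found in 2 members (2.03% of all genes), Slc25a25 at -150 and Slc25a36 at -161. Of the 3 windows of Slc25a25, only the one printed above held it. The core TGCGCA of the nuclear respiratory factor site was found in 4 members (8.79% of all genes), Slc25a3, Slc25a21, Slc25a31 and Slc25a36. The GC box GGGCGG, which may overlap other motifs, was found in 30 of 36 members, or 83.3%, against 38.2% of all genes. These shares are over all 27025 genes with a window, tested here or not. No share over tested genes alone was computed, so the gap is not read as particular to the family. The 2 tested members without it, Slc25a12 and Slc25a13, are the aspartate-glutamate carriers printed above. A match is a description of these letters and says nothing of binding.

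Depth was 1790402 to 12842635 reads per library, and 0.332% to 1.01% of them fell on Slc25a genes. Libraries numbered 1 and 2 were shallower than those numbered 3 to 5 in both chambers, and the ribosomal RNA gene Rn45s took 0.215% to 0.480% of reads in the former and 23.1% to 29.8% in the latter. The labels do not name these 2 sets of libraries, but libraries of a set deviated together from their group means in both chambers. Within numbers 3 to 5 this held for unlike numbers as much as for like ones. Each result is given with the replicate block (a term for the number) where that changes it. The labelled chambers matched their markers: the summed atrial list (Myl7, Myl4, Nppa, Sln, Bmp10) was 126650 to 443146 normalized reads in atrial and 2640 to 27850 in ventricular libraries, and the ventricular list (Myl2, Myl3, Irx4, Hey2) 461 to 1743 and 114947 to 161460. Summed markers shared by both kinds of cardiomyocyte overlapped, at 350489 to 477422 and 369624 to 471835. Of these 7 genes, 1 was called higher in ventricular libraries and 0 in atrial ones, against 6.56% and 8.12% of all tested genes. That gene was Mb, with a log2 difference (atrial minus ventricular) of -3.07 and a limma adjusted p of 0.000196.

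Levels can be compared between genes only per length of exon, and on that scale the family was led by one gene. Slc25a4, the ADP/ATP carrier of heart and skeletal muscle, had a mean of 11922 normalized reads per kb of exon over the 10 libraries. Slc25a5, the ADP/ATP carrier found in most tissues, followed at 1451 per kb, then the oxoglutarate carrier Slc25a11 at 411 and the phosphate carrier Slc25a3 at 375. Slc25a4 made up 67.1% to 81.5% of the summed family level in atrial and 71.4% to 82.8% in ventricular libraries, so its share overlapped between chambers (74.2% ± 6.39 against 76.0% ± 5.91, SD, n = 5). The next 6 genes, Slc25a12, Slc25a46, Slc25a20, Slc25a39, Slc25a23 and Slc25a13, lay between 142 and 119 per kb, and their order is not resolved: Slc25a12 alone ranged from 112 to 185 per kb between libraries. The 8 most abundant genes together held 90.1% to 96.4% of the summed level, and the 13 untested genes at most 0.237%.

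**Figure D1:**
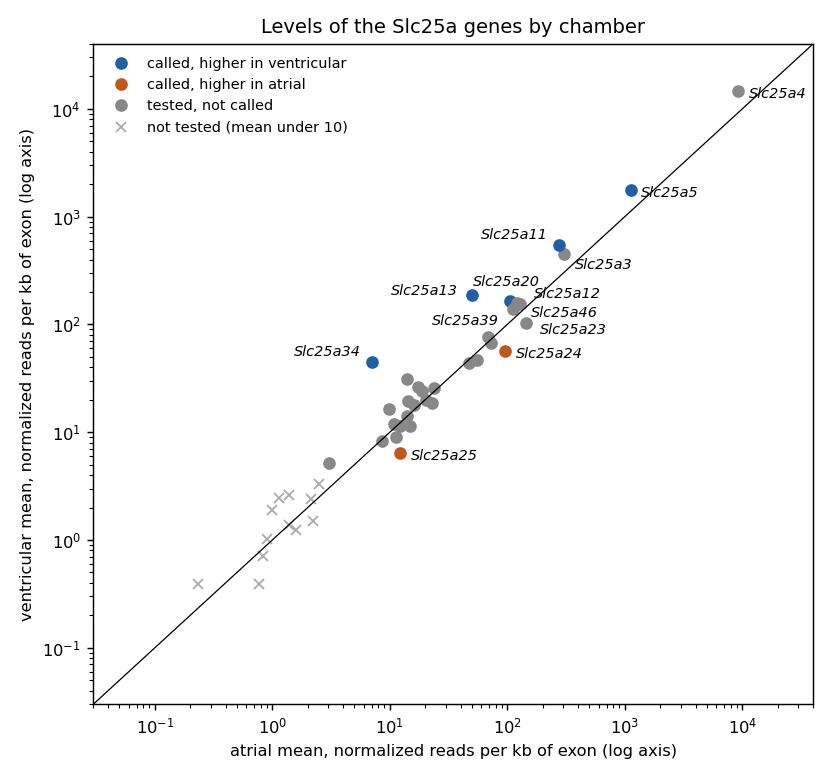
Mean normalized reads per kb of exon in 5 atrial (x axis) and 5 ventricular (y axis) libraries, both on log axes, with 1 point per Slc25a gene reported here and a line where the levels are equal. Slc25a4 stands alone at the top right, Slc25a34 and Slc25a13 lie farthest above the line, and Slc25a48, at 0 in every ventricular library, is not drawn.

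Summed over all 47 genes, the level was 8962 to 16553 per kb in atrial and 15208 to 24286 per kb in ventricular libraries, with means of 12220 ± 3140 and 18990 ± 4121 (SD, n = 5), a ratio of 1.55. Without Slc25a4 the sum was 2826 to 3092 per kb in every atrial library and 3875 to 4852 per kb in every ventricular one, a ratio of 1.46 with no overlap. These sums are descriptions and were not tested.

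Of the 34 tested members, 6 were higher in ventricular and 2 in atrial libraries (limma, adjusted p under 0.05, called hereafter). The 6 make 17.6% of the tested members against 6.56% of all tested genes called in that direction, and the 2 make 5.88% against 8.12%. In either direction 8 of 34 members were called, or 23.5%, against 14.7% of all genes. Those higher in ventricular libraries included Slc25a34, Slc25a13, Slc25a11, Slc25a5 and Slc25a20, and higher in atrial libraries were Slc25a25 and Slc25a24. The median log2 difference (atrial minus ventricular) was -0.21 over the 34 members and -0.01 over all tested genes, with a value below 0 in 21 of 34 members and in 51.3% of all genes. In bulk RNA, fewer cells of a type and less RNA per cell cannot be told apart.

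Ranges of the 5 atrial and 5 ventricular libraries did not overlap for 7 members higher in ventricular libraries, the 6 called ones and Slc25a39, against 6.55% of all tested genes. The same held for 2 members higher in atrial libraries, Slc25a25 and Slc25a24, against 7.84% of all tested genes. With the replicate block, 14 members were higher in ventricular libraries against 16.0% of all tested genes, 2 were higher in atrial ones against 16.3%, and 16 were called in either direction against 32.3%. The block kept all 6 ventricular calls and added Slc25a3, Slc25a4, Slc25a10, Slc25a12, Slc25a30, Slc25a33, Slc25a39 and Slc25a46. On the atrial side it kept Slc25a25, added Slc25a23 and lost Slc25a24. When same-numbered libraries were set side by side, 14 of 34 members were higher in the ventricular library in all 5 numbers, or 41.2% against 20.7% of all tested genes, and 4 were higher in the atrial one in all 5, or 11.8% against 20.2%.

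**Figure D2:**
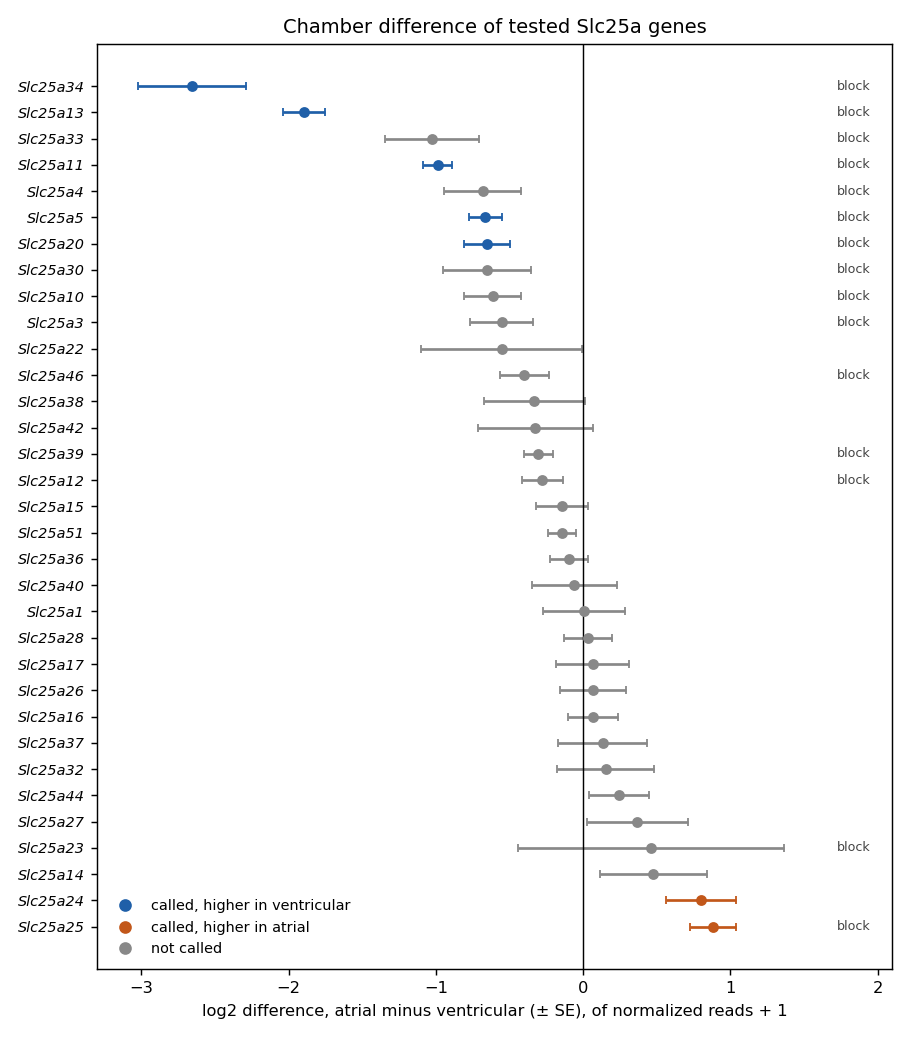
Log2 difference (atrial minus ventricular, x axis) of log2(normalized reads + 1) with its SE for the tested Slc25a genes reported here, ordered by size, from 5 libraries per chamber. Blue genes were called higher in ventricular and orange genes higher in atrial libraries, and the word block at the right marks genes called with the replicate block. The differences run from -2.66 for Slc25a34 to 0.88 for Slc25a25.

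Some markers of other cells differed between chambers too. Smooth muscle markers summed to 1534 to 6369 normalized reads in atrial and 8751 to 15360 in ventricular libraries. Of 6 genes, 2 (Acta2 and Myh11) were called higher in ventricular, against 6.56% of all tested genes. Cnn1 and Kcnj8 of the same list had log2 differences of 1.76 and 1.31, higher in atrial and not called. Fibroblast marker sums overlapped, at 21312 to 36361 and 9165 to 63474. Numbers 1 and 2 had 21312 and 28679 in atrial and 9165 and 20067 in ventricular libraries. Numbers 3 to 5 had 34320 to 36361 and 48548 to 63474. Of the 8 genes, 2 (Pdgfra and Lum) were called higher in ventricular, against 6.56% of all tested genes. Col1a2 and Col3a1 had log2 differences of 0.18 and 0.41, higher in atrial and not called. Col1a1, Dcn, Tcf21 and Postn had differences from -1.12 to -0.14, also not called. All 8 and all 6 genes were detected, and their part in the ventricular calls was not tested.

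Slc25a34 (chr4:141618824-141623821, minus strand), a carrier to which no substrate is assigned here, had the largest difference of the family. Its values were 6.90, 20.2, 23.9, 17.7 and 25.7 normalized reads in atrial libraries 1 to 5 and 58.8, 136, 142, 126 and 138 in ventricular libraries 1 to 5. Every ventricular library lay above every atrial one, and number 1 was lowest in both chambers. Group means were 18.9 ± 7.39 and 120 ± 34.9 (SD, n = 5), a 6.37-fold higher ventricular mean, with a log2 difference of -2.66 ± 0.36 (SE) and an adjusted p of 0.000676 by limma. The lowest value rests on 5 reads. On the scale per kb it remained a minor carrier, at 7.07 in atrial and 45.0 in ventricular libraries.

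Among carriers of organic acids and of aspartate and glutamate, 2 of 6 tested members were called, both higher in ventricular libraries, against 6.56% of all tested genes, and 4 with the replicate block, against 16.0%. Slc25a13 (chr6:6041218-6217173, minus strand), the aspartate-glutamate carrier also called citrin, had 159, 174, 189, 211 and 220 normalized reads in atrial and 730, 536, 848, 692 and 767 in ventricular libraries. The lowest ventricular library was above the highest atrial one by more than the whole spread of the atrial group. Its means were 190 ± 25.4 and 715 ± 115 (SD, n = 5), 3.75-fold higher in ventricular libraries, with a log2 difference of -1.90 ± 0.14 (SE) and an adjusted p of 1.19e-05.

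Slc25a12, the other aspartate-glutamate carrier (aralar), had 1101, 1068, 822, 846 and 866 normalized reads in atrial and 1356, 1314, 1104, 972 and 969 in ventricular libraries. Groups overlapped, and numbers 1 and 2 were higher than 3 to 5 in both chambers, while the ventricular library was higher in each of the 5 numbers. Its log2 difference of -0.28 ± 0.14 (SE) had an adjusted p of 0.253, and of 0.0124 with the replicate block. Per kb, Slc25a12 exceeded Slc25a13 in every atrial library, by 2.04 to 3.59 times. In ventricular libraries the ratio was 0.654 to 1.27, so the order of the pair turned between chambers in most libraries.

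Slc25a11 (chr11:70644196-70647479, minus strand), the oxoglutarate carrier that works beside this pair in the malate-aspartate shuttle, had 521, 628, 595, 584 and 592 normalized reads in atrial and 1187, 1289, 1194, 1083 and 1048 in ventricular libraries. Both groups were tight and far apart. The ventricular mean was 1.99-fold higher (584 ± 38.8 against 1160 ± 96.5, SD, n = 5), with a log2 difference of -0.99 ± 0.10 (SE) and an adjusted p of 8.06e-05. The gene overlaps Rnf167 on the opposite strand, which had a mean of 220 normalized reads, and the labels do not say whether counting used the strand.

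Slc25a10, the dicarboxylate carrier, ranged from 41.4 to 74.4 in atrial and from 70.7 to 106 in ventricular libraries, with a log2 difference of -0.61 ± 0.19 (SE). Its adjusted p was 0.0579, and 0.00672 with the replicate block, 0.0488 without ventricular library 1 and 0.0397 without ventricular library 2. The glutamate carrier Slc25a22 had 8.64 to 29.0 normalized reads in atrial and 7.31 to 50.2 in ventricular libraries, and was called neither without nor with the block. Slc25a1, the citrate carrier that exports citrate for lipid synthesis, had means of 30.4 ± 7.66 and 30.7 ± 10.5 (SD, n = 5).

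**Figure D3:**
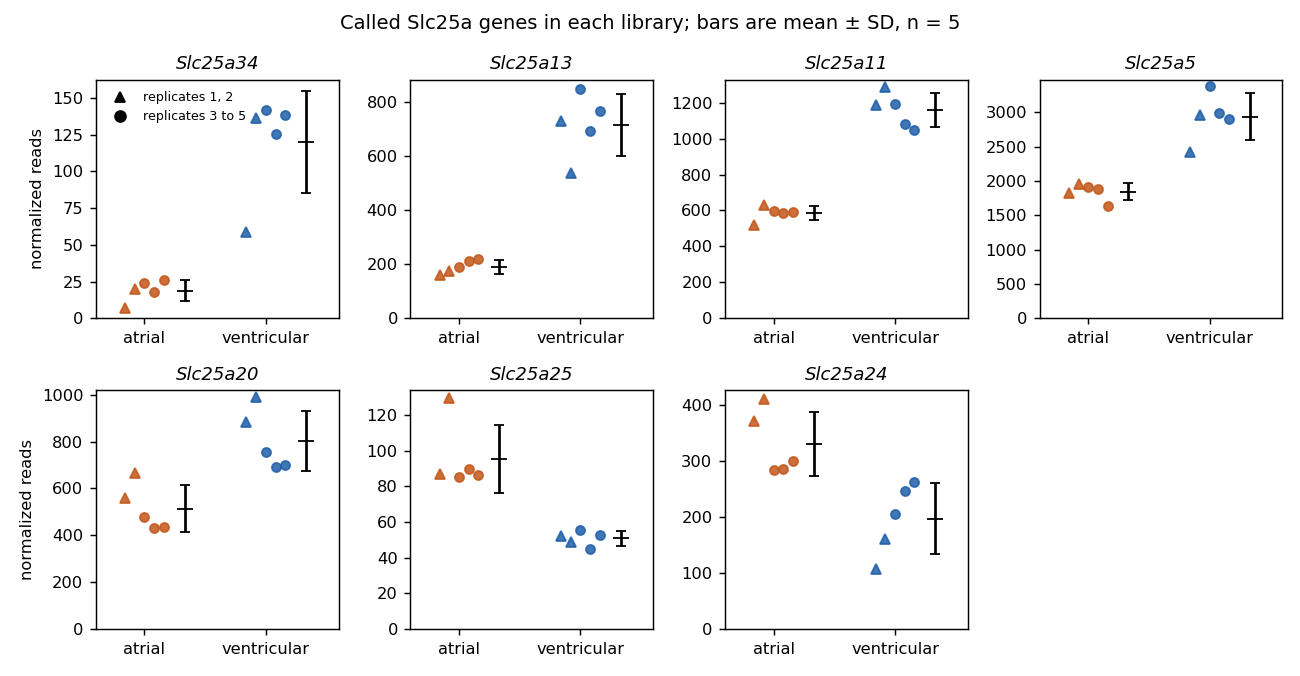
Normalized reads (y axis, from 0) of 7 called Slc25a genes in each atrial (orange) and ventricular (blue) library, with triangles for numbers 1 and 2, circles for numbers 3 to 5, and bars for the mean ± SD of 5. The groups do not overlap in any panel. The gap is narrow in Slc25a24, where the lowest atrial library had 284 and the highest ventricular one 261. It is also narrow in Slc25a20, where the highest atrial library had 666 and the lowest ventricular one 692.

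The 3 tested carriers of ADP/ATP exchange and phosphate all had lower atrial values, against 51.3% of all tested genes. Of the 3, 1 was called higher in ventricular libraries, against 6.56% of all tested genes, and 3 with the replicate block, against 16.0%. With so few members these shares are not read as a result about the group. Slc25a5 (chrX:36795651-36798807, plus strand) had 1830, 1953, 1912, 1883 and 1632 normalized reads in atrial and 2422, 2969, 3388, 2996 and 2897 in ventricular libraries. Its groups were apart. Ventricular libraries averaged 1.59 times the atrial mean (log2 difference -0.67 ± 0.11, SE), with an adjusted p of 0.00225.

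Slc25a4 (chr8:46206797-46211284, minus strand) had 27164, 31751, 18471, 16977 and 14152 normalized reads in atrial and 43857, 46925, 28447, 27237 and 25541 in ventricular libraries. Numbers 1 and 2 were the highest in both chambers, and the groups overlapped, while the ventricular library was higher in each of the 5 numbers. The means were 21703 ± 7426 and 34401 ± 10143 (SD, n = 5) and the log2 difference was -0.68 ± 0.26 (SE), almost the same size as that of Slc25a5. Its adjusted p was 0.121, and 0.000120 with the replicate block.

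The phosphate carrier Slc25a3 had 1159, 1454, 2013, 1901 and 1854 normalized reads in atrial and 1640, 2021, 3233, 2825 and 2689 in ventricular libraries. Here numbers 1 and 2 were the lowest in both chambers, the opposite of Slc25a4, and again all 5 ventricular libraries exceeded the atrial library of the same number. Its log2 difference was -0.55 ± 0.21 (SE), with an adjusted p of 0.124 that became 0.000268 with the replicate block. Without ventricular library 1 the adjusted p was 0.0406.

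**Figure D4:**
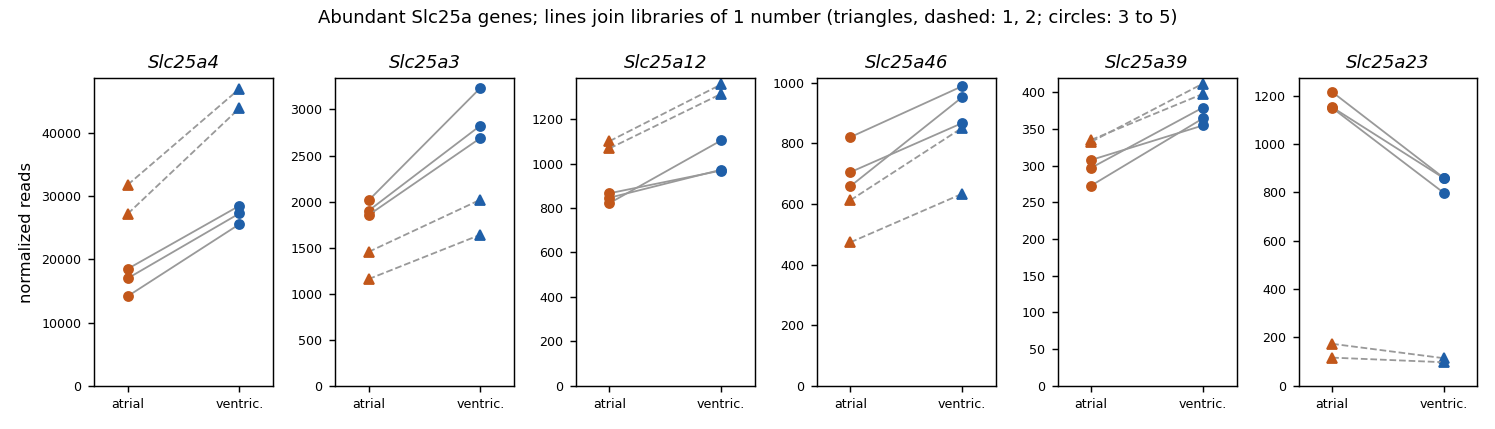
Normalized reads (y axis, from 0) of 6 abundant Slc25a genes, with lines joining the atrial and the ventricular library of 1 number, triangles and dashed lines for numbers 1 and 2, circles and full lines for numbers 3 to 5. All 5 lines rise toward ventricular for Slc25a4, Slc25a3, Slc25a12, Slc25a46 and Slc25a39 and fall for Slc25a23, and within each chamber numbers 1 and 2 lie apart from 3 to 5 in all 6 genes, most widely in Slc25a23.

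Calcium-regulated ATP-Mg/phosphate carriers adjust the adenine nucleotide content of the matrix. Of the 3 tested members, 2 were called higher in atrial libraries, Slc25a25 and Slc25a24, against 8.12% of all tested genes, and with the replicate block 2 were, Slc25a25 and Slc25a23, against 16.3%. Slc25a25 (chr2:32414487-32451445, minus strand) had 86.9, 130, 85.2, 89.6 and 86.2 normalized reads in atrial and 51.9, 48.7, 55.8, 44.8 and 52.5 in ventricular libraries. Slc25a25 overlaps Naif1 on the opposite strand (mean of 22.4 normalized reads), and the strand setting of the counting is unstated. The Slc25a25 groups did not overlap, and atrial library 2 stood above the rest. The atrial mean was 1.88-fold higher (95.5 ± 19.1 against 50.7 ± 4.16, SD, n = 5), with a log2 difference of 0.88 ± 0.16 (SE) and an adjusted p of 0.00290.

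Slc25a24 (chr3:109123149-109168457, plus strand) had 371, 410, 284, 285 and 299 normalized reads in atrial and 107, 161, 206, 246 and 261 in ventricular libraries. Groups did not overlap, but the gap came mostly from numbers 1 and 2, whose atrial values were the highest and ventricular values the lowest of all. Its log2 difference was 0.80 ± 0.24 (SE) with an adjusted p of 0.0448. It was 0.0526 with the replicate block and 0.0181 with a term for the library set in place of the number. Within numbers 1 and 2 the log2 difference was 1.56, and within numbers 3 to 5 it was 0.29. This inequality was tested as an interaction of chamber and library set and had an adjusted p of 0.0144. Slc25a24 was the 1 member of 34 so called, or 2.94%, against 5.21% of all tested genes. Leaving out 1 library at a time gave adjusted p values from 0.0323 to 0.0933, and the call was lost without any 1 of the 5 atrial libraries and without ventricular library 2 or 3.

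Slc25a23 had 174, 117, 1153, 1150 and 1216 normalized reads in atrial and 114, 97.5, 859, 798 and 860 in ventricular libraries. Numbers 1 and 2 were many times lower than 3 to 5 in both chambers. Without the block, the log2 difference of 0.46 ± 0.91 (SE) had an adjusted p of 0.844. With the replicate block the adjusted p was 0.00191, and the atrial library was higher in each of the 5 numbers. Without the block, leaving out ventricular library 2 turned the difference to -0.014.

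Epicardial markers were also higher in the atrial libraries. Summed epicardial markers were 3091 to 7547 normalized reads in atrial and 412 to 2193 in ventricular libraries. Of 7 tested genes, 7 were called higher in atrial, against 8.12% of all tested genes. Endothelial marker sums overlapped, at 1203 to 4254 and 288 to 1567. Of 8 genes, 3 (Kdr, Tek and Npr3) were called higher in atrial, against 8.12% of all tested genes. Pecam1, Cdh5 and Flt1 had log2 differences below 0 (-0.48, -0.87 and -0.86) that were not called. Emcn and Vwf had differences of 0.83 and 1.38, also not called. Pecam1, Cdh5, Kdr, Flt1, Emcn and Vwf were each highest in library 1 of both chambers, and Tek and Npr3 in that of the atrial group only. The part of epicardial and endothelial cells in the atrial calls of Slc25a24 and Slc25a25 was not tested.

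Among carriers of carnitine, amino acids and glutathione, 1 of 6 tested members was called, higher in ventricular libraries against 6.56% of all tested genes, and 2 with the replicate block against 16.0%. With so few members these shares are not read as a result about the group. Slc25a20 (chr9:108662088-108684641, plus strand), the carnitine-acylcarnitine carrier, had 557, 666, 478, 432 and 434 normalized reads in atrial and 882, 990, 756, 692 and 699 in ventricular libraries. Numbers 1 and 2 were the highest in both chambers, and the groups did not overlap. Means were 1.57-fold apart (log2 difference -0.65 ± 0.16, SE), at an adjusted p of 0.0160. With libraries scaled to equal totals in place of the deposited size factors, the difference was -0.58 and no longer called (adjusted p = 0.169).

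Slc25a39, a carrier needed for glutathione import into the matrix, had 273 to 335 normalized reads in atrial and 355 to 412 in ventricular libraries. Its small difference of -0.31 ± 0.10 (SE) separated the groups without passing the threshold (adjusted p = 0.0663, and 0.0103 with the replicate block). Its close relative Slc25a40 had 67.6 to 113 and 58.5 to 138 and a log2 difference of -0.06 ± 0.29 (SE), which turned to 0.01 with libraries scaled to equal totals. The branched-chain amino acid carrier Slc25a44, the glycine carrier Slc25a38 and the ornithine carrier Slc25a15 were called in neither fit, with log2 differences of 0.24 ± 0.21, -0.33 ± 0.34 and -0.14 ± 0.17 (SE).

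Among carriers of cofactors and nucleotides, the pyrimidine nucleotide carrier Slc25a33 had 34.5, 31.7, 25.0, 20.05 and 20.6 normalized reads in atrial and 118, 43.9, 47.7, 52.8 and 33.4 in ventricular libraries. Ventricular library 1 was far above the other 4, and the groups overlapped slightly. Its log2 difference was -1.03 ± 0.32 (SE), with an adjusted p of 0.0558 in limma without a block, 0.00747 with it, 0.0384 without ventricular library 5, 0.0492 in edgeR and 0.0119 in DESeq2 on the recovered reads. Slc25a36, a carrier of the same substrates, had means of 228 ± 22.8 and 245 ± 38.8 (SD, n = 5) and a log2 difference of -0.10 ± 0.13 (SE). Slc25a16, Slc25a17, Slc25a26, Slc25a32, Slc25a42 and Slc25a51 of the same group had log2 differences from -0.33 to 0.16 and were called in neither fit. For Slc25a26 the overlapping gene Lrig1, on the opposite strand, had the higher mean value (224 normalized reads).

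The mitoferrins Slc25a28 and Slc25a37, which carry iron for haem and iron-sulfur clusters, were not called. Slc25a28 had 63.4 to 92.6 normalized reads in atrial and 58.8 to 92.6 in ventricular libraries. Slc25a37, the mitoferrin known from red cell precursors, had 297, 109, 96.0, 97.9 and 93.3 in atrial and 138, 92.6, 112, 106 and 119 in ventricular libraries. Atrial library 1 stood alone, and without it the log2 difference went from 0.13 to -0.18. In that library the erythroid marker Alas2, the haem synthesis enzyme of red cell precursors, had 634 normalized reads, the highest of the 10 libraries. The 4 globin genes of the erythroid list (Hba-a1, Hba-a2, Hbb-bs, Hbb-bt) were listed at 0 in all 10 libraries, and the part of red cell precursors in the Slc25a37 value was not tested.

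Members related to uncoupling proteins, Slc25a14, Slc25a27 and Slc25a30, were not called, and Slc25a30 was higher in ventricular libraries with the replicate block (log2 -0.65 ± 0.30 without the block, adjusted p = 0.199, and 0.0195 with it). Slc25a30 had 52.4, 63.3, 38.6, 41.3 and 30.9 normalized reads in atrial and 131, 82.9, 49.6, 62.1 and 48.2 in ventricular libraries, higher in the ventricular library of each number. Slc25a14 had 42.8, 44.6, 22.7, 27.1 and 39.3 in atrial and 45.0, 41.4, 16.7, 19.4 and 13.6 in ventricular libraries. In Slc25a14 the chambers differed little in numbers 1 and 2 (log2 0.02) and more in 3 to 5 (log2 0.78). Slc25a46, an outer membrane protein that takes part in mitochondrial fission and fusion, had 473, 612, 704, 658 and 820 in atrial and 633, 851, 866, 952 and 988 in ventricular libraries. Its log2 difference of -0.40 ± 0.17 (SE) had an adjusted p of 0.157, and of 0.00262 with the replicate block.

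The 13 untested members, Slc25a2, Slc25a18, Slc25a21, Slc25a29, Slc25a31, Slc25a35, Slc25a41, Slc25a43, Slc25a45, Slc25a47, Slc25a48, Slc25a53 and Slc25a54, had means from 0.527 to 8.35 normalized reads and no value above 20.8 in any library. At these depths a value of 0 allows up to 3 reads, or 1.70 to 10.4 normalized reads depending on the library, which covers counting error only. A 0 in at least 1 library was found in 6 of the 13. The adenine nucleotide carrier Slc25a31, known from testis, had a mean of 4.26, and the glutamate carrier Slc25a18, whose gene overlaps the more abundant Atp6v1e1, had 5.54. Several sit beside a tested member: Slc25a41 lies 2056 bp from Slc25a23, Slc25a54 lies 6461 bp from Slc25a24, and Slc25a43 lies 18448 bp from Slc25a5. These neighbours had means of 1.02, 1.04 and 2.46 normalized reads beside a called or block-called gene.

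Whether carriers of like substrate differed unequally between chambers was tested on the log2 ratio of the 2 genes in each library, with exact two-sided permutation tests over all ways to label the 10 libraries, the smallest possible p being 0.00794. Of 10 pairs listed, 8 had both genes tested, and p values were adjusted over these 8. The ratio of Slc25a12 to Slc25a13 was 2.30 ± 0.38 in atrial and 0.68 ± 0.41 in ventricular libraries on the log2 scale (SD, n = 5), a difference of 1.62 (exact permutation p = 0.00794, adjusted p = 0.0317). The ratio of Slc25a14 to Slc25a30 was -0.36 ± 0.42 and -1.48 ± 0.29, a difference of 1.13 with the same exact permutation p and adjusted p. Both were larger in the atrial library in all 5 numbers. For Slc25a36 to Slc25a33 the difference was 0.93 (exact permutation p = 0.0238, adjusted p = 0.0635).

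The remaining 5 pairs did not pass this test either. Slc25a4 to Slc25a5 differed by -0.02 (exact permutation p = 0.913), with log2 ratios of 3.49 ± 0.43 in atrial and 3.51 ± 0.53 in ventricular libraries. Slc25a11 to Slc25a10 differed by -0.37 (exact permutation p = 0.111) and was lower in the atrial library in all 5 numbers. Slc25a39 to Slc25a40, Slc25a23 to Slc25a25 and Slc25a28 to Slc25a37 differed by -0.25, -0.42 and -0.10 (exact permutation p = 0.524, 0.540 and 0.865). With labels permuted only within the 2 library sets, where the smallest possible p is 0.0167, Slc25a11 to Slc25a10, Slc25a12 to Slc25a13, Slc25a14 to Slc25a30 and Slc25a36 to Slc25a33 had that exact permutation p (adjusted p = 0.0333). Slc25a23 to Slc25a25 then had an exact permutation p of 0.0333 (adjusted p = 0.0533). With the signs of the 5 same-number differences permuted, the replicate block form of the test, no pair can go below 0.0625. All pairs but Slc25a4 to Slc25a5 and Slc25a28 to Slc25a37 had that value.

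**Figure D5:**
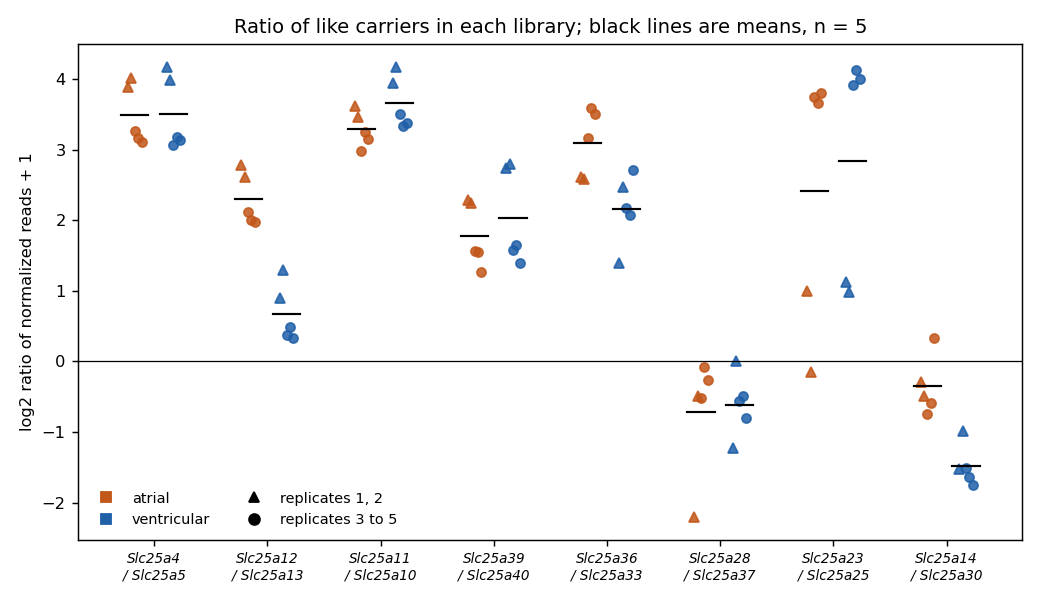
Log2 ratio of 2 like carriers (y axis, normalized reads + 1) in each atrial (orange) and ventricular (blue) library for the 8 tested pairs, with black lines for means of 5, triangles for numbers 1 and 2 and circles for 3 to 5. Atrial and ventricular points are fully apart for Slc25a12 to Slc25a13 and for Slc25a14 to Slc25a30, and for Slc25a4 to Slc25a5 the means are 3.49 and 3.51, with numbers 1 and 2 above 3 to 5 in both chambers.

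Within the deeper libraries numbered 3 to 5, 18 members were higher in ventricular libraries against 26.6% of all tested genes, and 6 in atrial ones against 26.2%. Members called there and in neither fit of all 10 libraries were Slc25a22, Slc25a40, Slc25a42 and Slc25a51 on the ventricular side, and Slc25a14, Slc25a27 and Slc25a44 on the atrial side. Within the shallower numbers 1 and 2, 3 members were higher in ventricular libraries (Slc25a34, Slc25a13 and Slc25a11) against 2.04% of all tested genes, and Slc25a24 was higher in atrial ones against 3.09%. Only Slc25a34, Slc25a13, Slc25a11 and Slc25a24 were thus called within both sets.

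Genes that work with the carriers were looked at by list. The import machinery that brings carrier proteins to the inner membrane had 4 of 10 genes called higher in ventricular and 0 in atrial libraries, against 6.56% and 8.12% of all tested genes, and 5 higher in ventricular with the block, against 16.0%. All 10 had lower atrial values, against 51.3% of all tested genes. The receptor Tomm70a, which binds newly made carriers at the outer membrane, had 931 ± 106 normalized reads in atrial and 1436 ± 67.4 in ventricular libraries (SD, n = 5, adjusted p = 0.00240). Tomm40, the pore of the outer membrane, was 2.08-fold higher in ventricular libraries, and Timm10, a chaperone of the space between the membranes, 2.02-fold. Timm22, the inner membrane insertase for carriers, had 88.1 ± 18.7 and 103 ± 13.6 and was called in neither fit.

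Enzymes that use what the carriers move had 6 of 14 genes called higher in ventricular and 0 in atrial libraries, against 6.56% and 8.12% of all tested genes. With the block 10 were higher in ventricular libraries, against 16.0%, and all 14 had lower atrial values, against 51.3%. The 6 include the shuttle enzymes Got1, Got2 and Mdh1 (1.38-, 1.61- and 1.49-fold higher in ventricular libraries), carnitine acetyltransferase Crat (2.12-fold) and the mitochondrial creatine kinase Ckmt2 (2.63-fold). Mdh2, the mitochondrial malate dehydrogenase, had a log2 difference of -0.54 ± 0.46 (SE), an adjusted p of 0.552, and 0.000258 with the replicate block. Of 16 tested genes for other inner membrane transport, 2 were called, against 14.7% of all tested genes in either direction, and 5 with the block, against 32.3%. Both were higher in ventricular libraries: the pyruvate carrier subunit Mpc2 (394 ± 66.6 against 1002 ± 67.3, SD, n = 5) and the transporter Abcb10. Mpc1, which forms the pyruvate carrier with Mpc2, had 123 ± 60.9 and 156 ± 43.5 and was not called. Of the carriers named otherwise, Ucp3 was 12.9-fold higher in ventricular libraries (adjusted p = 0.00896), and Ucp2, Mtch1 and Mtch2 were not called without the block. With the block, Ucp2 (1591 ± 668 normalized reads in atrial against 692 ± 452, SD, n = 5, limma adjusted p = 0.00431) and Mtch1 (692 ± 268 against 581 ± 236, adjusted p = 0.0152) were higher in atrial libraries.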

How the data were processed

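RNA was sequenced from atrial and ventricular cardiomyocytes, 5 libraries each, grouped by their titles. Trimmomatic, HISAT2 and featureCounts were used on GRCm38 (mm10), per the submitters' processing notes. Tool versions, the annotation and the strand setting are unstated there. Per the file headers, the deposited tables hold a signal for each gene, namely counts scaled by the library's size factor. Division by each library's smallest step recovered whole counts (tolerance 0.01) for 100% of values. Positions, identifiers and exon lengths came from GENCODE release M21 (GRCm38), and start-site windows from RefSeq (GRCm38.p6).

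Genes with a mean of at least 10 were tested with limma (3.58.1, R 4.3.3, trend and robust, two-sided) on log2(normalized reads + 1). Adjustment was by Benjamini-Hochberg over all 12422 tested genes, at 0.05. That scale understates changes of genes with few reads. A fold is the ratio of 2 group means. The script was tested on simulated data. Values of their own are given for called members, the 8 with most reads per kb and both genes of each listed pair. Other members with values of their own were chosen after these were seen. Deviations from group means of same-numbered libraries correlated at 0.582, 0.637, 0.623, 0.556 and 0.631, and numbers were treated as pairs. Unlike numbers within 3 to 5 correlated alike, at 0.560 to 0.636. After the 2 library sets were also centred, same-numbered libraries gave 0.405, 0.405, -0.0394, 0.00205 and 0.0678. For numbers 1 and 2 these values are equal by construction, since that set holds 2 libraries per chamber. Pairing by number is therefore not shown within numbers 3 to 5. Alternatives were other pseudocounts, filters and scalings, the replicate block, a library set term, each set alone, edgeR (4.0.16) and DESeq2 (1.42.0) on the recovered reads, and leaving out each library. Some items are not reported here by name, though counts include them. The members, lists, pairs and motifs were chosen with earlier results of these data known.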

Additional observations from a re-analysis of the deposited data

Results flagged for a closer look

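In 5 of the 66 combinations of a Slc25a gene reported here and a chamber, the highest or the lowest of the 5 libraries lay far from the other 4 by Dixon's test, where chance gives about 1 in 20. All 5 values came from libraries numbered 1 or 2, the shallower ones. Slc25a37 had 297 normalized reads in atrial library 1 and 93.3 to 109 in the other atrial libraries. Slc25a33 had 118 in ventricular library 1 against 33.4 to 52.8, and Slc25a34 had 58.8 in the same library against 126 to 142. Slc25a16 had 273 in ventricular library 2 against 188 to 203. Slc25a25 had 130 in atrial library 2 against 85.2 to 89.6.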

How the results depend on the processing

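The 6 ventricular calls were kept with a pseudocount of 5, no filter, a filter at 50, the replicate block, the library set term, numbers 3 to 5 alone, edgeR, DESeq2 and each left-out library. They were not all kept with equal totals (4 kept) or with numbers 1 and 2 alone (3 kept). Against 1824 genes called in all, there were 4017 with the replicate block, 3955 with the set term, 6561 in numbers 3 to 5 and 638 in numbers 1 and 2. Equal totals moved the atrial share of all calls from 55.3% to 65.3%. Against 6 members higher in ventricular libraries, there were 14 with the replicate block, 14 with the set term, 18 in numbers 3 to 5, 3 in numbers 1 and 2, and 10 with DESeq2 (adding Slc25a3, Slc25a10, Slc25a33 and Slc25a39), and 6 to 8 when 1 library was left out. Against 2 higher in atrial libraries, there was 1 with no filter, 3 with the set term (Slc25a25, Slc25a24 and Slc25a23), 6 in numbers 3 to 5, 1 in numbers 1 and 2, and 1 to 2 when 1 library was left out. The members' median of -0.21 became -0.28 with a filter at 50 (fewer genes) and -0.14 with equal totals, and ran from -0.22 to -0.16 when 1 library was left out.

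Signs changed in values that were not called. Slc25a28 had -0.071 in numbers 1 and 2, Slc25a36 had 0.13 and Slc25a37 -0.22 in numbers 3 to 5, and Slc25a40 had 0.22 in numbers 1 and 2 and 0.00997 with equal totals. In numbers 3 to 5 the ratio difference was 0.055 for Slc25a4 to Slc25a5 and 0.33 for Slc25a28 to Slc25a37. When 1 library was left out, log2 differences ran from -0.014 to 0.99 for Slc25a23, -0.046 to 0.12 for Slc25a28, -0.18 to 0.23 for Slc25a37 and -0.22 to 0.083 for Slc25a40. Ratio differences ran from -0.15 to 0.15 for Slc25a4 to Slc25a5, -0.26 to 0.27 for Slc25a28 to Slc25a37 and -0.88 to 0.22 for Slc25a23 to Slc25a25. The cause of these changes was not tested. Ratio tests in numbers 3 to 5 alone cannot go below 0.1 and so cannot pass. Depth limits the members with few reads most, since the lowest library had 5 reads for Slc25a34 and 3 for Slc25a22.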
